A study of Mus musculus with 4 samples.

Results

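Growth hormone, prolactin and leptin act on cells through related cytokine receptors, and much of what growth hormone does in the body is carried by insulin-like growth factor 1 (IGF-1). The set described here holds 10 genes of this system: the receptor genes Ghr, Prlr and Lepr, the ligand and receptor genes Igf1 and Igf1r, the IGF carrier genes Igfals and Igfbp3, and the kinase and transcription factor genes Jak2, Stat5a and Stat5b. Every peak in the 2 deposited BCL6 peak lists whose nearest promoter, by the authors' annotation, belongs to one of these genes was taken at any distance. Of the 1785 peaks of the inguinal list 6 were assigned to members, and of the 3956 peaks of the perigonadal list 9. The 10 genes stand beside 21900 protein-coding genes in the RefSeq table.

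BCL6 is a zinc finger protein that represses transcription, and the letters it prefers in DNA resemble those bound by STAT factors. When growth hormone or prolactin binds its receptor, the attached kinase JAK2 phosphorylates STAT5A and STAT5B, which enter the nucleus and bind target genes such as Cish, Socs2 and Igf1. Fat cells carry growth hormone receptors, and growth hormone is known to promote the breakdown of stored fat in them.

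BCL6 occupancy was measured by chromatin immunoprecipitation and sequencing (ChIP-seq) in adipocyte nuclei of C57BL/6 mice carrying Adipoq-Cre and Sun1-sfGFP-myc. The Cre is driven by the adiponectin promoter, and the Sun1 tag on the nuclear envelope allowed nuclei to be collected on myc beads. The 2 groups used were inguinal (subcutaneous) and perigonadal (visceral) fat, each with 1 library made with a custom guinea pig antibody against mouse Bcl6, and the background line and genotype were the same in both. The input library of each depot, which had no antibody, was not analysed here, and the age, sex and number of mice are not given in the sources used here. Both groups carried the tag and Cre, neither lacked BCL6, and a peak list holds no expression by which the cell type could be checked.

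With 1 library per depot there was no replicate check, so no test between depots was run and no p-value is given. A peak score is the authors' value, scaled within its own list, and is compared with other peaks of that list only. All inguinal scores were whole multiples of a step of 0.752, and all perigonadal scores of a step of 0.882, to the precision at which they were deposited; a step was read as 1 sequenced tag. Intervals on scores are exact Poisson 95% intervals of the tags and cover counting error only. With 1 library per depot they hold no spread between animals or libraries. Duplicate reads cannot be told from independent molecules without molecular identifiers, so the intervals may be too narrow even for counting error. The depth of the libraries was not determined here. Positions are those of the files on mm10.

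BCL6 peaks were assigned to 6 of the 10 genes over both lists together, for which the share of all protein-coding genes was not computed. In the inguinal list 5 of 10 had a peak (Ghr, Prlr, Igf1, Igfals and Igfbp3), and in that list 6.15% of protein-coding genes were the nearest gene of a peak. In the perigonadal list 5 of 10 had one (Ghr, Prlr, Lepr, Igfals and Igfbp3), beside 12.3% of protein-coding genes. Peaks of both lists that overlapped by at least 1 bp, called shared below, were found for 4 of 10 (Ghr, Prlr, Igfals and Igfbp3), beside 1.86% of protein-coding genes. With peaks within 50 kb of the promoter alone, 4 of 10 members had a peak in the inguinal list (Ghr, Prlr, Igf1 and Igfals) and 4 of 10 in the perigonadal list (Ghr, Prlr, Lepr and Igfals), as Igfbp3 dropped out of both, beside 4.25% (inguinal) and 8.89% (perigonadal) of protein-coding genes. Igf1r, Jak2, Stat5a and Stat5b had no assigned peak in either list. Members were picked with earlier results of these data known, so these counts describe the set and are not independent evidence about it.

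**Figure D1:**
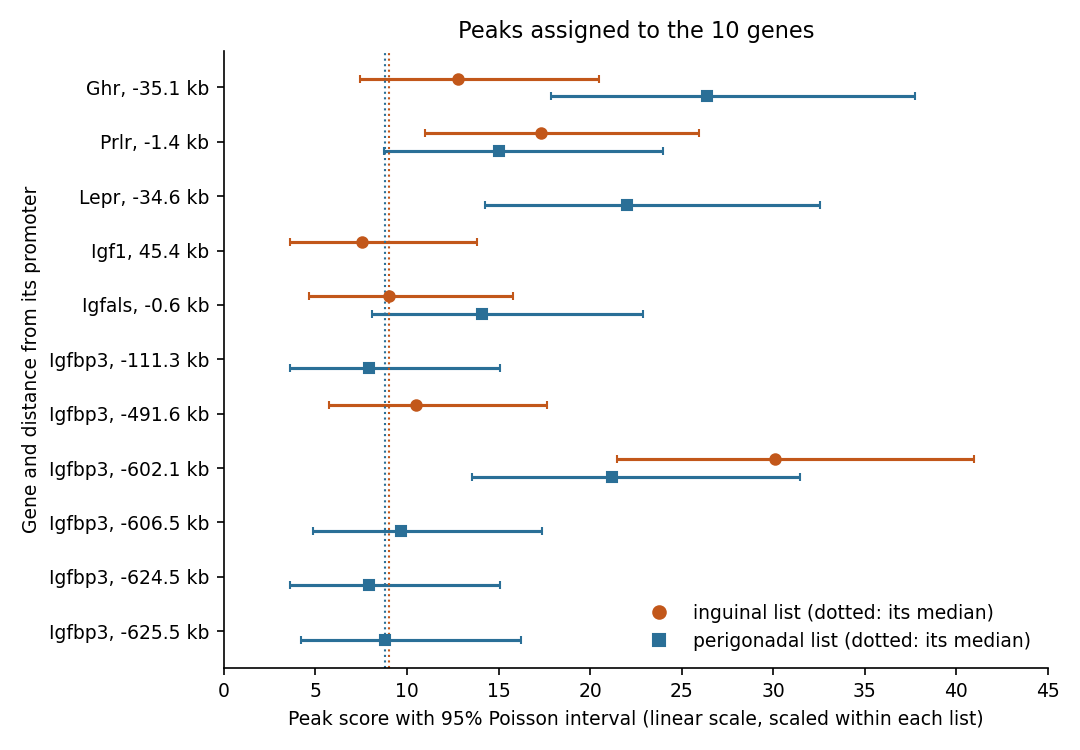
Scores of the 15 peaks assigned to the 10 genes, 1 row per site with its distance from the promoter; points are single peaks (circles inguinal, squares perigonadal), bars are 95% Poisson intervals and dotted lines the median score of each list (9.03 and 8.82). The 4 shared sites have a point of each list. The Igfbp3 site near 602 kb stands highest among the inguinal points, and the Ghr and Lepr sites among the perigonadal points.

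Of the shared sites, the one at Igfals, which encodes the acid-labile subunit that holds IGF and its binding protein in a stable complex in blood, lay at the gene's own start. The inguinal peak (chr17:24878094-24878296) scored 9.03 (interval 4.66 to 15.8), and the perigonadal peak (chr17:24878061-24878245) scored 14.1 (8.06 to 22.9). The authors' annotation calls both promoter peaks, 575 and 617 bp upstream of the start of NM_008340. RefSeq lists 3 starts for Igfals, and the centres of the peaks lay 36 bp (inguinal) and 78 bp (perigonadal) upstream of the second of them. Both peaks span that start, and the perigonadal peak also touches the body of the long non-coding RNA gene Gm41549. The inguinal peak is of middling height: 46.9% of its list scored lower, and of the 209 inguinal peaks with the same 12 tags 31 (14.8%) had a perigonadal partner.

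The letters of this site can be shown because the RefSeq promoter table (build GRCm38.p6, the chromosomes of mm10) covers it. The 250 bases before the second Igfals start, chr17:24877981-24878230, plus strand, are printed 5′ to 3′ in lower case, with capitals for the single match to the palindrome TTCNNNGAA, the form of site that STAT5 prefers.
Igfals: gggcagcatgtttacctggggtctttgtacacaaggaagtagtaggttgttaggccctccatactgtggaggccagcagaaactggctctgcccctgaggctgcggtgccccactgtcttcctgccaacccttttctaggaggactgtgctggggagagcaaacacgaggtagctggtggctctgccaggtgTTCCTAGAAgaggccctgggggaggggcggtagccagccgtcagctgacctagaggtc
The match, TTCCTAGAA, runs from 58 to 50 bases before the start (chr17:24878173-24878181) and lies inside the peak of either list.

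For comparison, stretches of 30 bases around 2 other matches are shown, 1 under tall peaks and 1 under none. The Cish stretch (chr9:107296654-107296683, plus strand) lies at the start of a known STAT5 target gene, inside the promoter peaks of both lists, and holds 2 matches separated by a pair of bases. The Prlr stretch (chr15:10223786-10223815, plus strand) lies before the second RefSeq start of the prolactin receptor gene, where neither list has a peak. Its match is the reverse complement of the one at Igfals.
Igfals: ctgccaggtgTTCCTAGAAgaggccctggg
Cish: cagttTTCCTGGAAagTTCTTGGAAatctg
Prlr: gcaaaatgagTTCTAGGAAtaagggatatc
The same letters thus occurred at a member's start with and without a peak.

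Counted on both strands, TTCNNNGAA occurred in 8.30% of all 32851 RefSeq promoter windows of 300 bases (250 before and 50 after a start). It occurred in 18 of the 66 windows that an inguinal peak overlapped (27.3%, Wilson 95% interval 18.0 to 39.0%), in 27 of the 118 that a perigonadal peak overlapped (22.9%, 16.2 to 31.2%) and in 10 of the 23 with a peak of both lists (43.5%, 25.6 to 63.2%). The form TTCCTAGAA, which is contained in the palindrome, occurred in 0.411% of all windows, in 6 of 66, 7 of 118 and 4 of 23. The form TTCCAGGAA, also contained in it and the reverse complement of the first Cish match, occurred in 0.807% of all windows, in 5 of 66, 7 of 118 and 2 of 23. Of the 18 windows of the 10 genes, 3 held the palindrome: the one printed, the Prlr one and the window of the first Igfals start, whose match (TTCTCAGAA) lay under no peak. A match is a run of letters, not a measured binding site, and windows of alternative starts of 1 gene can overlap.

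**Figure D2:**
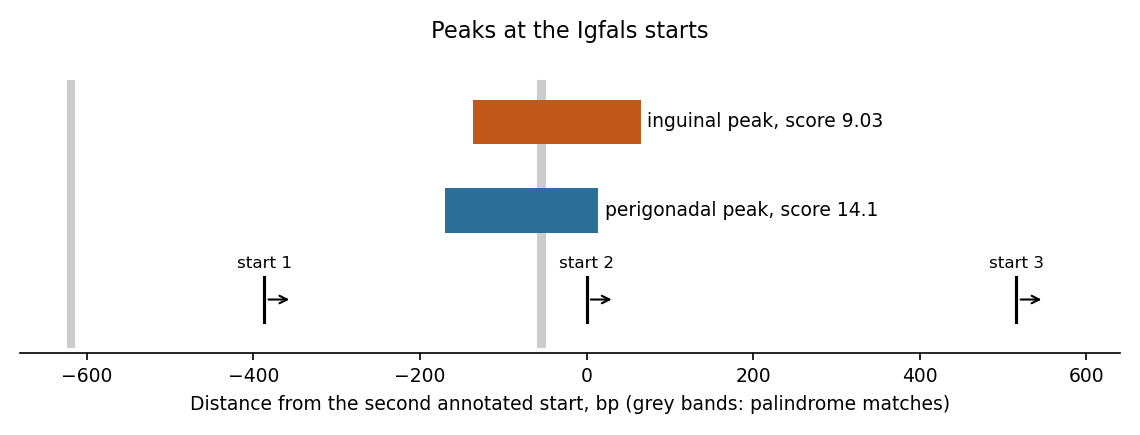
Peaks at Igfals drawn to scale as bars (inguinal above, perigonadal below) against the distance in bp from the second annotated start; arrows mark the 3 RefSeq starts and grey bands the palindrome matches within the promoter windows. The match 58 bases before the second start lies under both peaks, and the one before the first start lies under neither.

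Prlr, the prolactin receptor gene, had a shared peak inside its body. It scored 17.3 in the inguinal list (10.97 to 26.0, rank 218 of 1785; chr15:10292109-10292311) and 15.0 in the perigonadal list (8.73 to 24.0, rank 480 of 3956; chr15:10292129-10292313). The authors place it in intron 1 of 9 of NM_001253781, 1.44 and 1.43 kb upstream of the start of a shorter transcript. From the first of the 3 RefSeq starts it lay 115.0 kb downstream. No peak overlapped the promoter window of any of the 3 starts. The shared pair overlapped by 183 bp, the largest overlap of the 4 pairs.

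Ghr, the growth hormone receptor gene, had a shared peak in intergenic sequence 35.1 kb upstream of its promoter. The score was 12.8 in the inguinal list (7.45 to 20.5, 17 tags; chr15:3618371-3618573) and 26.4 in the perigonadal list (17.8 to 37.8, 30 tags; chr15:3618346-3618530). Within its list the perigonadal peak ranked 138 of 3956 and was the tallest of the 9 member peaks there, while the inguinal peak ranked 390 of 1785. The closest annotated gene body is that of Gm41255, a long non-coding RNA gene 3.47 kb from the inguinal peak. The closest protein-coding gene apart from Ghr is Ccdc152, 314.8 kb away.

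Lepr, the receptor gene for the fat-derived hormone leptin, had a perigonadal peak alone. It scored 22.0 (14.3 to 32.5, 25 tags, rank 213 of 3956; chr4:101682720-101682904) and lay 34.6 kb upstream of the Lepr promoter, 23.4 kb beyond the end of Leprot, whose product is known to affect the surface level of leptin receptors. The same interval held a lower perigonadal peak of 8.82 that the authors assigned to Leprot (chr4:101675834-101676018). No inguinal peak lay closer than 425.0 kb to the Lepr gene body. Of perigonadal peaks within 3 tags of the height of the Lepr peak, 92 of 146 (63.0%) had an inguinal partner. Its focus ratio, a fraction that the authors' list gives for each peak, was 0.935, the highest of the 15 member peaks and above the upper quartile of its list (0.902).

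Igf1, the gene for the growth factor that growth hormone induces, had a single inguinal peak. It scored 7.52 (3.61 to 13.8, 10 tags; chr10:87906380-87906582) in intron 3 of 4, 45.4 kb downstream of the promoter. This is a low peak: 3.19% of the inguinal list scored lower. Its focus ratio was 0.611, under the lower quartile of 0.750. Of the 306 inguinal peaks with the same 10 tags, 11 (3.59%) had a perigonadal partner. The closest perigonadal peak was 264.0 kb from the Igf1 body. Where a list has no peak, none was called, and occupancy below the calling limit was not detectable at this depth.

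**Figure D3:**
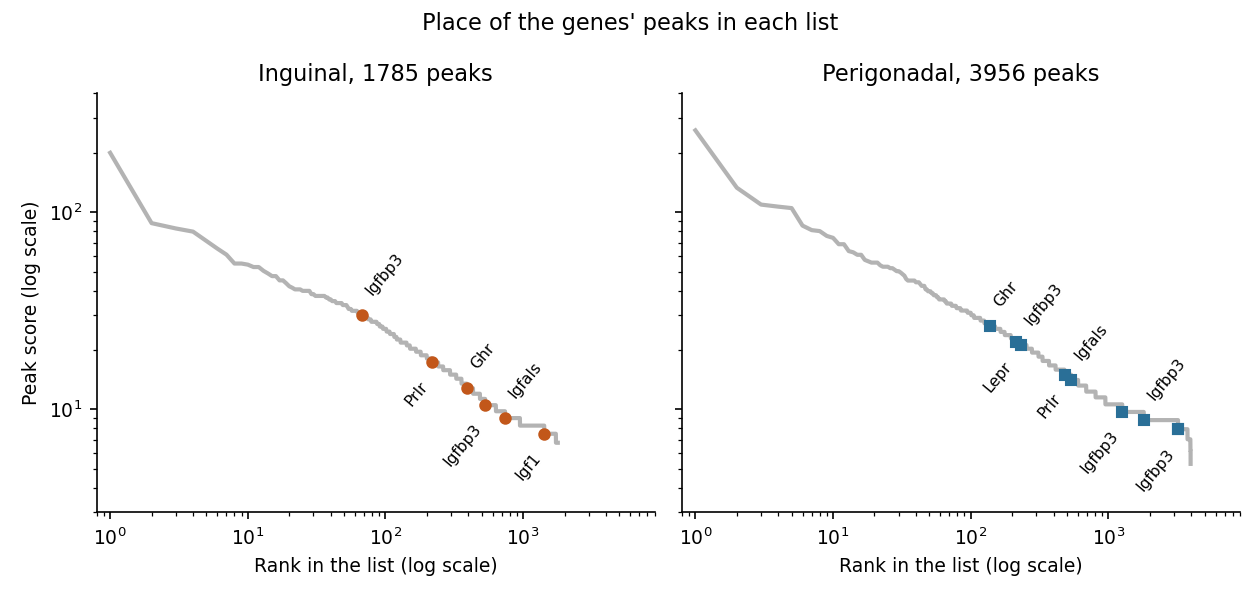
Score against rank in each list on log scales (grey line: all peaks of the list; coloured points: peaks of the 10 genes; equal scores share the lowest rank). The member peaks run from rank 68 to 1423 in the inguinal list and from rank 138 to 3205 in the perigonadal list, below the steep top of either list.

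Igfbp3, the gene for the main carrier protein of IGF in blood, took the tallest inguinal peak of the set and the largest number of peaks, 2 inguinal and 5 perigonadal. All were far from the gene. The shared site lay 602.1 kb upstream of the promoter and scored 30.1 in the inguinal list (21.5 to 41.0, 40 tags, rank 68 of 1785; chr11:7815881-7816083). In the perigonadal list it scored 21.2 (13.6 to 31.5, 24 tags, rank 230 of 3956; chr11:7815976-7816160). These peaks overlapped by 108 bp, the smallest overlap of the 4 pairs, and both were annotated in an L2c element, an old LINE repeat. Of inguinal peaks within 3 tags of this height, 33 of 33 had a perigonadal partner.

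The other perigonadal peaks of Igfbp3 were low. At 606.5, 624.6 and 625.5 kb upstream the scores were 9.70, 7.93 and 8.82, so that with the shared site 4 perigonadal peaks stood within 23.5 kb. The last, at 111.3 kb in an RMER19B LTR repeat, scored 7.93. The second inguinal peak, at 491.6 kb, scored 10.5 (5.76 to 17.7; chr11:7705443-7705645). None of these had a partner in the other list.

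The assignment to Igfbp3 is by distance alone. The gene borders an interval of 1216.2 kb without another protein-coding gene, which ends at Tns3, and the 7 peaks are all the peaks in it. The perigonadal peak at 606.5 kb lay 611.1 kb from the Tns3 body, and those at 624.6 and 625.5 kb lay 593.1 and 592.1 kb from it. These are distances to the edge of the Tns3 body, whereas the assignment went by the nearest promoter. Distances to a Tns3 promoter were not computed. In the perigonadal list 0.0548% of protein-coding genes (12 of 21900) were nearest to 5 or more peaks. Of all peaks, 3.47% of inguinal ones and 5.11% of perigonadal ones lay more than 400 kb from the nearest promoter, and 21.1% and 24.0% lay in annotated repeats.

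**Figure D4:**
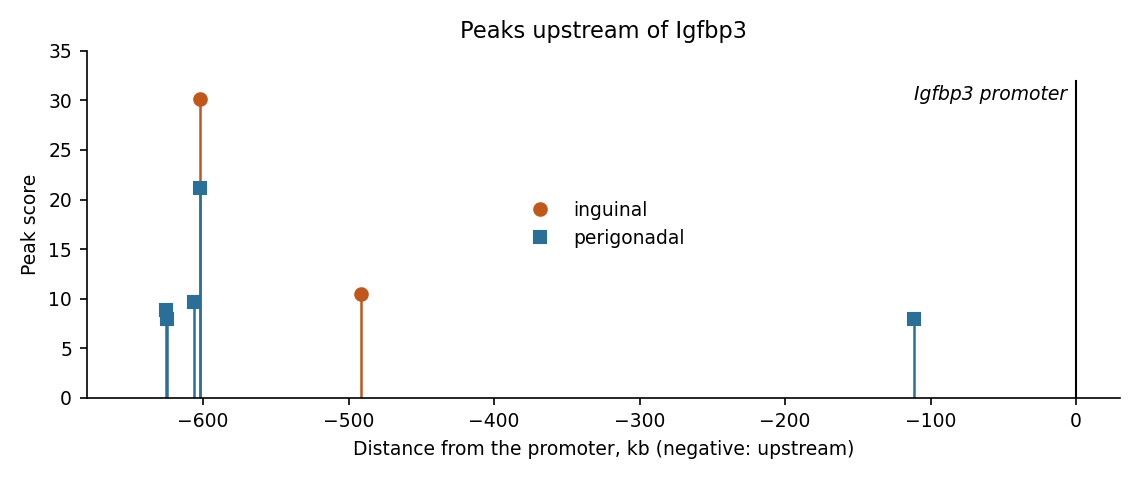
Peaks upstream of Igfbp3 as stems, with the distance from its promoter in kb on the horizontal axis and the score on the vertical axis (circles inguinal, squares perigonadal; black line: promoter). The shared site at 602.1 kb, with scores of 30.1 and 21.2, stands above the other 5 peaks.

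Igf1r, Jak2, Stat5a and Stat5b were the members without an assigned peak. Jak2, which encodes the kinase attached to these receptors, had a shared peak 32.4 kb from its gene body that the authors assigned to Rln1, the relaxin 1 gene, with scores of 14.3 (inguinal) and 13.2 (perigonadal; chr19:29345453-29345655 and chr19:29345468-29345652). In both lists this peak was annotated in an L1ME2z LINE repeat. Stat5a and Stat5b, the adjacent genes for the main transcription factors of growth hormone and prolactin signalling, had no inguinal peak within 100 kb of either body. In the perigonadal list a peak of 7.93 in an intron of Stat3, annotated in an RSINE1 SINE repeat, lay 24.6 kb from Stat5a. A perigonadal peak of 8.82 in exon 1 of Kcnh4 lay 21.1 kb from Stat5b. For Igf1r, the IGF-1 receptor gene, the closest peaks lay 506.8 kb (inguinal, 8.27) and 92.4 kb (perigonadal, 8.82) from the body.

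**Figure D5:**
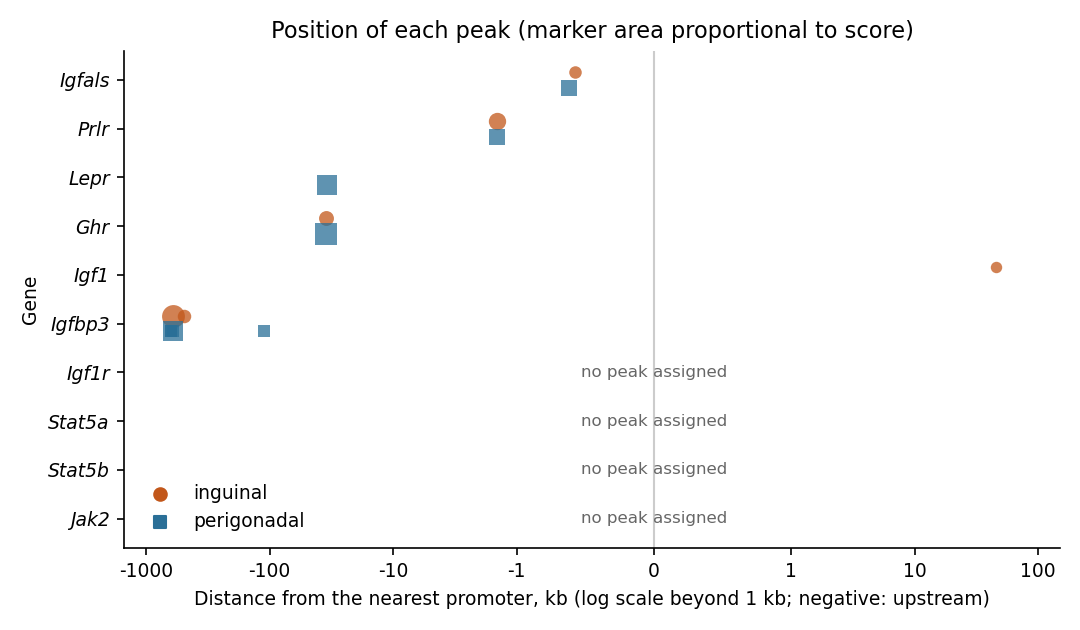
Distance of each assigned peak from the nearest promoter in kb (log scale beyond 1 kb, negative upstream), 1 row per gene; marker area is proportional to the score (circles inguinal, squares perigonadal). Only the Igfals and Prlr peaks lie within 10 kb, the Igf1 peak alone lies downstream, and the lowest 4 rows have no assigned peak.

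Other genes of the pathway were counted over a list of 48: hormones and IGF binding proteins, the proteases and inhibitors that act on those proteins, other JAK and STAT genes, inhibitors of cytokine signalling, phosphatases, adaptors, further receptors and Bcl6 itself. In the inguinal list 8 of 48 (16.7%) had a peak at any distance, and in the perigonadal list 13 of 48 (27.1%), beside the 6.15% and 12.3% of protein-coding genes given above. A shared peak was found for 5 of 48, beside 1.86% of protein-coding genes. The tallest were at the inhibitors Socs2 and Cish, which STAT5 induces and which damp receptor signalling: the Socs2 promoter scored 200.1 and 260.1, and the Cish start 65.4 and 85.5. The receptor peaks were far lower than these within either list, where the tallest receptor scores were 17.3 at Prlr (inguinal) and 26.4 at Ghr (perigonadal).

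Among the other pathway genes, a shared peak of 42.1 and 68.8 lay 108.8 kb upstream of Ptpn1, a phosphatase gene whose product acts on JAK2 and the insulin receptor. Socs5, a further inhibitor, had 24.1 and 22.0 at 34.5 kb. Pappa, the gene for a protease that cleaves IGF binding proteins, had a shared peak 529.0 kb upstream with 9.78 and 30.0. Cish had another shared site 11.4 kb downstream of its start, with 21.8 and 21.2. These sites, like those of Ghr and Igfbp3, lay away from promoters.

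The remaining peaks of the pathway list had no partner. Ptpn1 had a further perigonadal peak of 15.9 in intron 1, 26.6 kb from its promoter, and Pappa a further inguinal peak of 7.52 in intron 1, 3.16 kb from its promoter. Lep, the leptin gene, had an inguinal promoter peak of 7.52 located 424 bp upstream of its start and a separate perigonadal peak of 8.82 in its intron 2. Jak1 had an inguinal peak of 7.52, 26.8 kb from its promoter. In the perigonadal list Socs3 had a peak of 25.6, 33.5 kb from its promoter. There Sh2b3 had a peak of 11.5, Sh2b2 a peak of 9.70, Stat6 had 2 of 8.82, and Stat3 and Leprot the ones given above. The Sh2b2 peak, 38.3 kb from its promoter, was annotated in intron 21 of 23 of the transcript NM_009986. That peak and the Stat6 peak 5.62 kb from its promoter lay in annotated repeats. Bcl6 had peaks in both lists, none shared. The tallest, 11.3 (inguinal) and 18.5 (perigonadal), lay in intergenic sequence 88.65 and 184.3 kb upstream of its promoter.

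The member sites were spread over the heights of their lists. The 6 inguinal peaks ran from 7.52 to 30.1, and 4 of them exceeded the list's median of 9.03. The 9 perigonadal peaks ran from 7.93 to 26.4, and 6 exceeded the median of 8.82. Of the member peaks 4 of 6 inguinal and 4 of 9 perigonadal ones were shared, against 28.5% of the whole inguinal list and 12.8% of the whole perigonadal list. The same 4 sites are counted in each list, and the whole-list shares are not matched for height. Among peaks with the same tags as the shared peak, the shared percentages (inguinal, perigonadal) were 67.4 and 69.2 for Ghr and 66.7 and 48.2 for Prlr. They were 14.8 and 25.4 for Igfals and 100 (4 of 4 peaks) and 68.0 for Igfbp3. These sets, like those given for single peaks above, include the member peak itself. For the unshared Lepr peak the percentage was 64.7.

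Shared peaks of other protein-coding genes were ranked by how near their ranks in both lists, as percent of the list, came to those of each member among 508 shared pairs. This likeness rests on 2 libraries and says nothing of function. Nearest to Ghr was Selenop, with identical scores of 12.8 and 26.4, followed by Tmem30c (12.8 and 28.2) and Fabp9 (12.8 and 24.7). Nearest to Prlr were Ier2 (17.3 and 15.0), Drd4 and Mtss1 (17.3 and 15.9 each). Nearest to Igfals were Sybu and Trps1 (9.03 and 15.0 each) and Flrt3 (9.03 and 13.2). Nearest to Igfbp3 were Akt1 (30.8 and 22.0), Adamts2 (29.3 and 20.3) and Adamts16 (27.8 and 22.9).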

How the data were processed

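The 2 BCL6 peak lists were used, 1 per depot. The authors used Bowtie 1.2, HOMER and the mm10 genome, per the submitters' processing notes, and the lists were annotated with HOMER, per the file headers. The inguinal header names a false discovery rate of 0.001 and the perigonadal header names no threshold, so the lists may differ in calling limit. The lowest score was 6.77 in the inguinal list and 5.29 in the perigonadal list, each on its own scale. No source used here says whether libraries were pooled. The deposited peak score, the deposited focus ratio (a fraction) and the distance to the nearest promoter are the authors' values. Member genes were matched by Entrez number to a RefSeq table of GRCm38.p6, which held 1589 of 1593 inguinal and 3178 of 3180 perigonadal nearest genes. Tag steps, overlaps (at least 1 bp), ranks, distances to RefSeq starts and motif matches were computed with Python 3.11.15, pandas 2.3.3 and scipy 1.17.1. The code for tag steps, overlaps and motif matches was tested on simulated data, and that for ranks and distances was not. The members, pathway list and motifs were chosen with earlier results of these data known. All members and all pathway genes with a peak are named, with the 3 nearest genes by rank for each member with a shared peak. Peaks other than at promoter windows have no sequence here, as no genome was used. Alternatives changed the distance, tag, overlap and gene assignment rules.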

Additional observations from a re-analysis of the deposited data

How the results depend on the processing

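Counts of members with a peak depended on distance. Within 50 kb of the nearest promoter 4 of 10 members had a peak in each list, as Igfbp3 was lost from both, and 5 members had one over both lists together. Within 10 kb 2 did in each list, Prlr and Igfals. With peaks of more than 12 tags alone, 3 members had an inguinal peak (Ghr, Igfbp3 and Prlr) and 5 a perigonadal one. The 5 perigonadal members kept a peak when that list was held to its tallest 1785. The 4 members with a shared peak kept it with an overlap of at least 50% of the shorter peak and with centres within 500 bp, and 3 of them, without Igfals, with more than 12 tags in both lists. Counting peaks inside or within 50 kb of a member's body gave 5 inguinal peaks in place of 6 and 8 perigonadal ones in place of 9, but not the same peaks: the 7 of Igfbp3 dropped out, and peaks that the authors assigned to Rln1, Stat3, Kcnh4 and Leprot came in. By that count 5 members had an inguinal peak (Ghr, Prlr, Igf1, Igfals and Jak2) and 7 a perigonadal one (Ghr, Prlr, Lepr, Igfals, Jak2, Stat5a and Stat5b). The share of all protein-coding genes was not computed for the 10 kb, tag, tallest-1785 and gene-body rules, nor for both lists together. Those member counts therefore have no background beside them and cannot be judged against one. No replicate could be left out, with 1 library per depot. No paired analysis was possible because each group has a single library and no test was run.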

Other observations

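The Ghr gene body of 265.6 kb was flanked by a shared peak on either side, a pattern noticed after the values were seen. The one upstream is described above. The other lay 54.6 kb beyond the opposite end of the gene, 7.74 kb upstream of Selenop, which encodes a selenium transport protein (chr15:3262927-3263129 in the inguinal list and chr15:3262949-3263133 in the perigonadal list). In both lists it was annotated in an MLT1B LTR repeat. It had the scores of the upstream peak in both lists, 12.8 (17 tags) and 26.4 (30 tags). Other peaks had these scores too: 43 inguinal peaks in all had 17 tags, and 13 perigonadal peaks had 30 tags. Equal scores therefore do not mark these sites as a pair. Another protein-coding gene, Ccdc152, lies between the Selenop peak and Ghr.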
